A study of Mus musculus with 4 samples.

Results

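The genes described here encode proteins by which myogenic cells recognise each other, fuse and shape their surface membrane. They are Mymk, which encodes the fusion protein myomaker, the cadherin genes Cdh15, Cdh2 and Cdh11, the caveolin genes Cav1 and Cav3, and Cavin4, a muscle gene of the caveolar coat. Every probe set that the array's annotation assigns to 1 of these symbols alone was taken, which gave 8 of the 22690 probe sets and 7 of the 12394 named genes. Cdh2 had 2 probe sets and each other gene had 1. The cells came without culture from the hind limbs of C57BL/6 mice that were 8 to 12 weeks old, and were purified as myogenic cells. All muscle was injured by cardiotoxin, a venom component that kills muscle fibres and sets off regeneration, so no uninjured muscle is among these samples. The antibody named in the labels is SM/C-2.6, which is used to isolate muscle satellite cells. Cells taken 2, 3, 5 and 14 days after injury were each measured on 1 Affymetrix mouse 430A array. The number of animals behind an array is not stated in these sources. With no replicate of any day there is no test and no p-value, and higher or lower is used of a gene where 2 arrays differ by at least 2-fold. The comparisons of days share arrays, so a chance value on 1 array enters several of them.

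As background, differentiating myoblasts leave the cell cycle, adhere to each other and fuse into multinucleated fibres. Cadherins are calcium-dependent adhesion molecules that bind a like cadherin on the neighbouring cell and are anchored to actin through catenins. Myomaker is a membrane protein that myoblasts need for their membranes to merge. Caveolae are small pits of the plasma membrane, built from caveolins inside the membrane and a coat of cavins on its cytoplasmic face, and in muscle they hold a caveolin, Cav3, and a cavin, Cavin4, of their own.

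Signals are MAS5 signals in arbitrary units after each array was scaled to a common trimmed mean. The median of the scaled values on all arrays, 43.0, served as a floor for low signals, and ratios with 1 day at the floor are written as at least N-fold. Genes above the floor numbered from 6258 on day 2 to 7439 on day 14, and the number of arrays limits the precision. The SD of log2 ratios between neighbouring days, taken among probe sets for the same gene, was 0.32 to 0.37, which leaves out the spread between animals. As a measure of RNA length, the Gapdh control probe sets gave 3' to 5' ratios of 2.17, 1.88, 2.87 and 2.84 on days 2, 3, 5 and 14, and those of Actb 1.80, 2.20, 2.19 and 2.14. A control probe set for 18S ribosomal RNA read 676 on day 14 and 2563 to 3055 on the other days. In sorted cells, fewer cells of a type and less RNA per cell cannot be told apart. Of the defining markers of myogenic cells, Myod1 and Myog were above the floor on all arrays and Pax7 on days 3, 5 and 14.

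The 7 genes followed different courses. Mymk, Cav3 and Cavin4 had their highest signal on day 3, and so did both probe sets of Cdh2, Cdh15 stood high from day 3 onward, Cdh11 was above the floor on days 5 and 14 alone, and Cav1 stayed within 2-fold. For comparison, 3676 of the 7930 genes above the floor on any day (46.4%) spanned 2-fold or more, and of these 428 (11.6%) were highest on day 3, while 730 peaked on day 5, 1429 on day 14 and 1089 on day 2. The order of the days for a single gene rests on 1 array each.

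**Figure D1:**
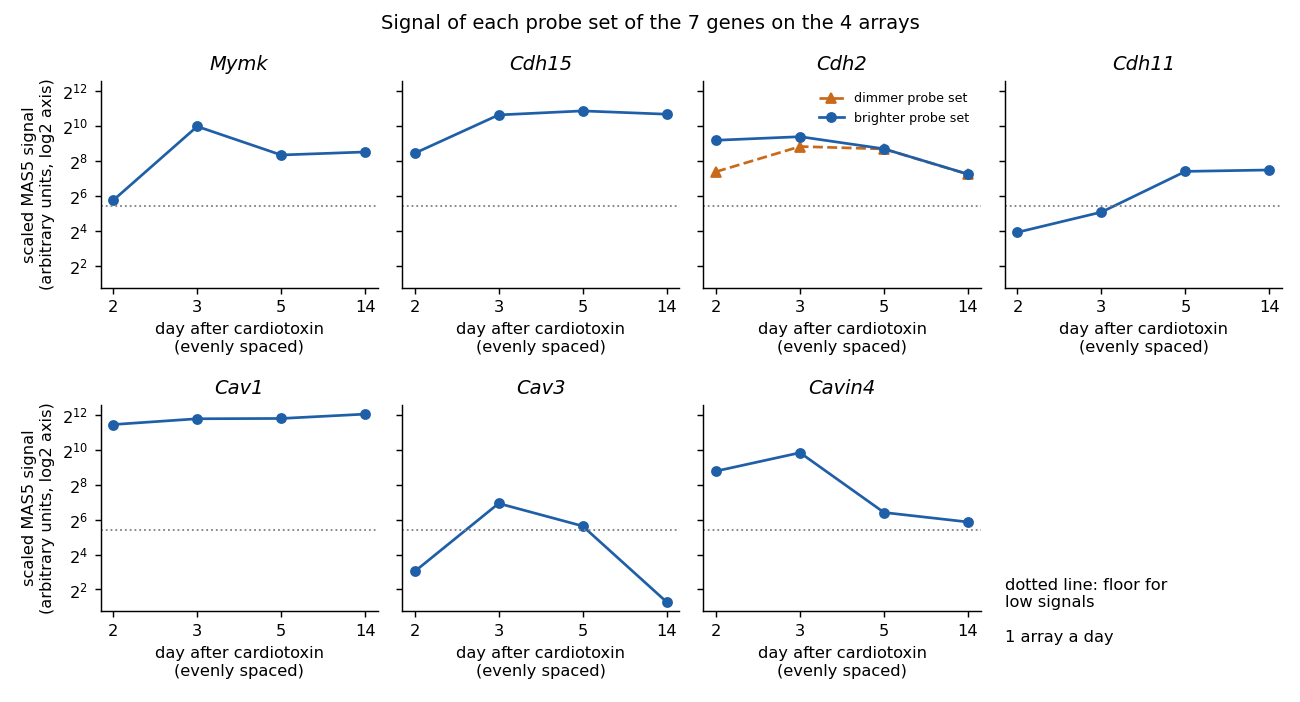
Scaled MAS5 signal (arbitrary units, log2 axis) of each probe set of the 7 genes on the arrays of days 2, 3, 5 and 14, with 1 array a day and the floor of 43.0 as a dotted line. Mymk, Cav3, Cavin4 and Cdh2 are highest on day 3, Cdh11 crosses the floor between days 3 and 5, and Cav1 stays between 2813 and 4252.5.

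Promoter sequence is shown for the 3 muscle genes found below to be at least 2-fold higher on day 3 than on day 2 and held by the RefSeq promoter table, Cavin4, Cav3 and Cdh15, and for Cav1, which stayed within 2-fold. From the table, of build GRCm38.p6, windows were taken for 4 of the 7 genes and not for Mymk, Cdh2 and Cdh11. The selection left out 1 chromosome, so a gene without a window here can still be in the table. Each sequence is the 250 bases before the annotated gene start on the + strand, written 5' to 3', and capitals mark each CANNTG, the E-box letters that MyoD, myogenin and many other helix-loop-helix factors bind.
Cavin4, chr4:48663264-48663513: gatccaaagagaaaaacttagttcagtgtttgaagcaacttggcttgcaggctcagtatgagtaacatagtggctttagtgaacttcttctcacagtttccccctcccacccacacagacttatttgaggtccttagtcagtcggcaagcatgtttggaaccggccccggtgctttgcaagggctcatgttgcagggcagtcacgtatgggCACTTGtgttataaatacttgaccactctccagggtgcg
Cav3, chr6:112459255-112459504: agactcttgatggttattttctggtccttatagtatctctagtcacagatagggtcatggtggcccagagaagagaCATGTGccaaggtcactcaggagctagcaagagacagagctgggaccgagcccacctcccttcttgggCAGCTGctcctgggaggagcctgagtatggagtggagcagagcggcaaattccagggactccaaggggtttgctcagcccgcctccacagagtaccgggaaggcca
Cdh15, chr8:122848124-122848373: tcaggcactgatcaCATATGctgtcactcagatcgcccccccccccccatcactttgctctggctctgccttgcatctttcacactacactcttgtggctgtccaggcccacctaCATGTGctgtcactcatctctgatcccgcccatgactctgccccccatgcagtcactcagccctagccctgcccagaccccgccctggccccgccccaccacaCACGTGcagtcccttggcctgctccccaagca
Cav1, first of 2 starts, chr6:17306085-17306334: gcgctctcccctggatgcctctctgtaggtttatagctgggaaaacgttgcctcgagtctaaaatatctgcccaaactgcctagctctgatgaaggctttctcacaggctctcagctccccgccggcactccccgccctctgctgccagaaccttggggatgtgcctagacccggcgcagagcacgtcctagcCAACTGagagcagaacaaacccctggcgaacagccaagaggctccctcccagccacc
Cavin4 held 1 E-box, CACTTG, 39 bases before the start, and the letters TATAAA 30 bases before it. Cav3 held 2 E-boxes, CATGTG at 174 bases and CAGCTG at 106 bases before the start. Cdh15 held 3, CATATG at 236, CATGTG at 135 and CACGTG at 32 bases, and Cav1 held 1 before each of its 2 starts. Of all 32851 such windows in the table, 66.2% held CANNTG, with 1.16 matches on average, 13.0% held CAGCTG and 7.59% held TATAAA on the strand of the gene. CANNTG can match on both strands at once, and CAGCTG is 1 form of it. The MCAT letters CATTCC (12.6% of windows, either strand), the MEF2 element (1.69%) and the CArG box (1.47%) had no match in the 5 windows of these 4 genes. A match of letters is a description of this window and not a binding site.

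The step from day 2 to day 3 was compared to follow the start of differentiation, and of the 7 genes Mymk moved furthest. Of the 6 genes measured on these arrays, 4 were at least 2-fold higher on day 3 (Mymk, Cdh15, Cav3 and Cavin4) and none was lower, beside 6.69% of all 6991 measured genes higher and 1.8% lower. The median log2 ratio of the 6 was 1.28, against 0.06 over all measured genes. Cdh11 was at the floor on both days.

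Mymk read 54.0 on day 2, then 1017 on day 3, 327 on day 5 and 368 on day 14. It was barely above the floor on day 2, peaked on day 3 and then stood at an intermediate level on both later days. The rise from day 2 to day 3 was 18.8-fold (log2 ratio 4.24) and ranked 6 among 6991 genes, with ranks from 6 to 11 under 7 other choices of scaling, floor and probe set. The fall from day 3 to day 5 was 3.11-fold (log2 ratio -1.64). Day 14 was 1.13-fold above day 5, inside the spread between probe sets of 1 gene, and 6.82-fold above day 2. The day 2 value lies close to the floor, and with the floor at 100 the rise was still 3.35 on the log2 scale.

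Among 7243 genes above the floor on at least 2 arrays, the course most like that of Mymk was that of Myog, the transcription factor myogenin that drives terminal differentiation. Likeness was taken as the root mean square difference of the log2 signals over the 4 arrays, each gene centred on its mean, and was 0.20 for Myog. Myog read 261, 3876, 1839 and 1835 on days 2, 3, 5 and 14. The next were Acta1, skeletal alpha-actin, at 0.50, and Fam214b at 0.54. No gene lay within 0.2 of Mymk, whereas 1002 lay within 0.2 of the nearly level course of Cav1.

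The cadherins of the set took 3 different courses. Cdh15 encodes M-cadherin, which joins satellite cells to fibres and myoblasts to each other. It read 350.0 on day 2, then 1606 on day 3, 1884 on day 5 and 1653 on day 14. Day 2 was low and the other 3 days lay within 1.17-fold of each other. Cdh15 was 4.59-fold higher on day 3 than on day 2 (log2 ratio 2.20) and, unlike Mymk, not lower on day 5 (log2 ratio 0.23). Day 14 differed from day 5 by a log2 ratio of -0.19 and from day 3 by 0.04, both within the spread between probe sets. The nearest courses were those of Zdhhc14 (0.07), Pcbd1 (0.08) and Pkia, an inhibitor of protein kinase A (0.11).

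Cdh2, which encodes N-cadherin, the cadherin of neurons, heart and myoblasts, was measured by 2 probe sets whose changes from day 2 disagreed. The brighter one read 587 on day 2, then 676 on day 3, 417 on day 5 and 153 on day 14. The dimmer one read 168 on day 2, then 458 on day 3, 415 on day 5 and 152 on day 14. Set against its own day 2, day 3 was 2.72-fold higher by the dimmer probe set, a call, and 1.15-fold by the brighter, which is none. Day 14 lay 3.85-fold below day 2 by the brighter and 1.11-fold by the dimmer. Both gave the same late decrease, 2.73-fold and 2.74-fold from day 5 to day 14 (log2 ratio -1.45 for each), and both were lower on day 14 than on day 3, by 4.43-fold and 3.02-fold. The annotation gives both probe sets the same source transcript. The part of RNA length in their difference was not tested. Courses nearest to the brighter probe set were those of Wdr1, a cofactor of actin disassembly (0.02), the aldolase gene Dera (0.06) and the semaphorin Sema7a (0.10).

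Cdh11, osteoblast cadherin, is found in mesenchymal cells. It read 15.1 on day 2 and 33.8 on day 3, both under the floor, then 170.3 on day 5 and 180.1 on day 14. Both late values lay above both early ones. The share of all genes ordered this way was not taken. Day 5 was at least 3.96-fold above day 3 and day 14 at least 4.19-fold above day 3. With a floor at 100, its log2 ratio of day 5 against day 3 was 0.77 and no longer reached 2-fold. The nearest courses were those of P2rx4, an ATP-gated channel (0.03), Tap1, the peptide transporter of antigen presentation (0.04), and P4ha2, a collagen prolyl hydroxylase (0.05). In all, 52 genes lay within 0.2. Days 2 and 3 of Cdh11 entered as the floor value, so likeness on these days was seen only down to it.

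The sums for markers of cells that carry Cdh11 were higher on days 5 and 14 as well, and they also rose from day 2 to day 3. For Cdh11 itself that first step was not measured, because both values were under the floor. The sum of 19 myogenic markers rose too, at 11288, 17348, 19960 and 25292 on the 4 days. The summed signal of 26 fibroblast and fibro-adipogenic markers was 4858 on day 2, then 15371 on day 3, 43283 on day 5 and 48229 on day 14, with 12, 17, 20 and 21 of the 26 above the floor. Of their defining markers, Pdgfra read 11.1, 41.7, 105 and 104 on the 4 days. Dpep1 was just above the floor on days 3 (55.6) and 5 (48.3), and Pi16 on day 14 alone (63.1). The sum for 14 mural and smooth muscle markers was 1938, 6316, 14036 and 13045, with 4, 8, 10 and 11 of the 14 above the floor. Much of this sum came from Acta2 (750, 3596, 7744 and 6176) and Des (888, 1620, 1787 and 1232), and Des is on the myogenic list too. Their defining markers Rgs5 and Cspg4 were above the floor from day 3 onward, Rgs5 reaching 1997 on day 14, and Myh11 on day 14 alone (56.5). The sum for 25 macrophage and leukocyte markers was 449.8, 1599.9, 4576 and 3913, with 4, 9, 17 and 17 above the floor. Among the defining markers of these cells, Ptprc read at most 59.7. Csf1r read 20.2, 91.0, 316 and 269 and Adgre1 23.7, 52.6, 105.5 and 86.5, both above the floor from day 3 onward. The sum for 10 Schwann cell markers was 901, 1619, 2846 and 4818, with Sox10 above the floor on day 3 alone (46.3). Ncam1 is on that list and on the myogenic list. The part of any of these cells in the signal of Cdh11 was not tested.

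**Figure D2:**
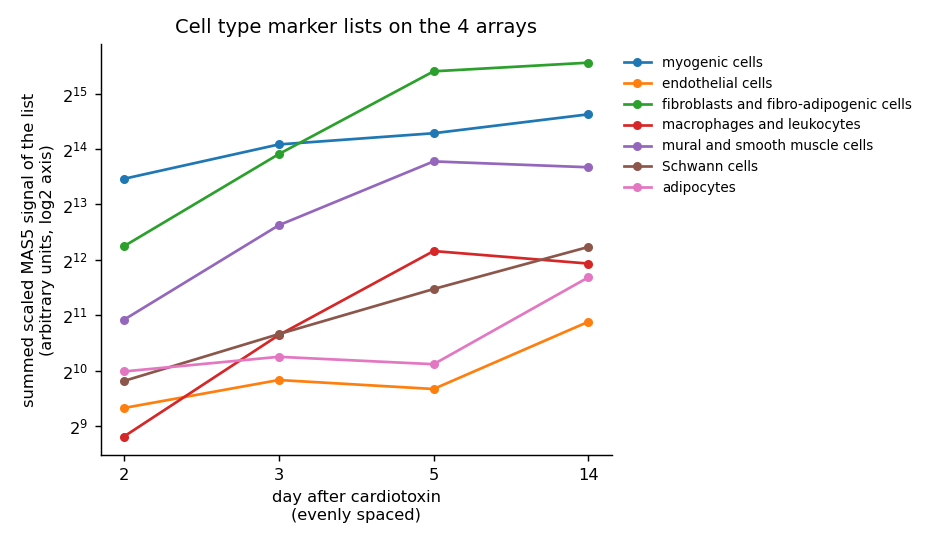
Summed scaled MAS5 signal (arbitrary units, log2 axis) of 7 lists of cell type markers, without the 7 genes described here, on the arrays of days 2, 3, 5 and 14. The sum for fibroblasts goes from 4858 on day 2 to 43283 on day 5, and the sum for endothelial cells from 643 on day 2 to 1891 on day 14.

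The caveolar genes split into a level one and muscle ones that peaked on day 3. Cav1, the caveolin of most cell types, read 2813 on day 2, then 3537 on day 3, 3578 on day 5 and 4252.5 on day 14. All 4 values lay within 1.51-fold of each other, so Cav1 was not called in any of the 6 comparisons. Its log2 ratio of day 14 against day 2 was 0.60 and ranged from 0.58 to 0.74 under the other scalings and floors. The nearest courses were those of Agbl5, Plekhb2 and Atp11b (0.02 to 0.03), which say little where so many genes are level. Agbl5 was under the floor on day 2 (15.6), so its course was level only after flooring.

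Cav1 is also abundant in endothelial cells and adipocytes. Endothelial defining markers were low: Pecam1 and Cdh5 were under the floor on every array, at most 38.4 and 20.6, and Kdr was above it on day 14 alone (59.1). The sum of 22 endothelial markers was 643, 912, 816 and 1891 on the 4 days, with 2, 4, 6 and 14 of them above the floor. Adipoq and Lep, defining markers of adipocytes, were under the floor on all arrays, and the sum of 9 adipocyte markers was 1015, 1220, 1112 and 3297, with 2 or 3 above the floor. Other genes of these lists were above the floor, such as Aqp1 (289, 401, 73.3 and 346 on the 4 days) and Lpl (915, 1079, 898 and 2412). The part of endothelial cells and adipocytes in the signal of Cav1 was not tested.

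Cav3, the caveolin of muscle, read 8.17 on day 2, then 122 on day 3, 49.8 on day 5 and 2.44 on day 14. It was measured on days 3 and 5 alone, and its day 5 signal was close to the floor. Day 3 was at least 2.85-fold above day 2 and 2.45-fold above day 5, and day 14 was at least 2.85-fold below day 3. At so low a signal the size depends on the floor: the log2 ratio of day 3 against day 2 was 0.29 with a floor at 100 and 2.61 with a floor at 20. With the values as deposited, the log2 ratio of day 5 against day 3 was -0.99. The nearest courses, which see Cav3 only down to the floor, were those of Scrib, a cell polarity gene (0.06), the nuclear pore gene Nup210 (0.08) and Gatm, an enzyme of creatine synthesis (0.09).

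Cavin4, which binds Cav3 at the muscle surface, read 442 on day 2, then 917 on day 3, 85.2 on day 5 and 58.5 on day 14. The first days were high and the last days close to the floor. Day 3 was 2.08-fold above day 2 (log2 ratio 1.05), which fell to 0.87 with the values as deposited. From day 3 to day 5 the signal fell 10.8-fold (log2 ratio -3.43). This ranked first among the decreases of 7523 measured genes, and first or second under the same 7 other choices. Ratios of genes that reached the floor are bounds, so such a gene can have fallen further. Day 14 was 15.7-fold below day 3 and 7.55-fold below day 2.

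Cavin4 differed from Mymk after the shared peak: Mymk was 6.82-fold higher on day 14 than on day 2, whereas Cavin4 was 7.55-fold lower. The root mean square difference between these courses was 2.20, against 0.80 between Mymk and Cdh15 and 1.28 between Cav3 and Cavin4. The nearest course to Cavin4 was that of Krt8, a simple keratin (0.15), followed by its partner Krt18 (0.38) and Egln3, a prolyl hydroxylase of hypoxia signalling (0.53). Krt8 read 430, 720, 71.6 and 6.25 on days 2, 3, 5 and 14, the last under the floor. It was the only gene within 0.2 of Cavin4.

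**Figure D3:**
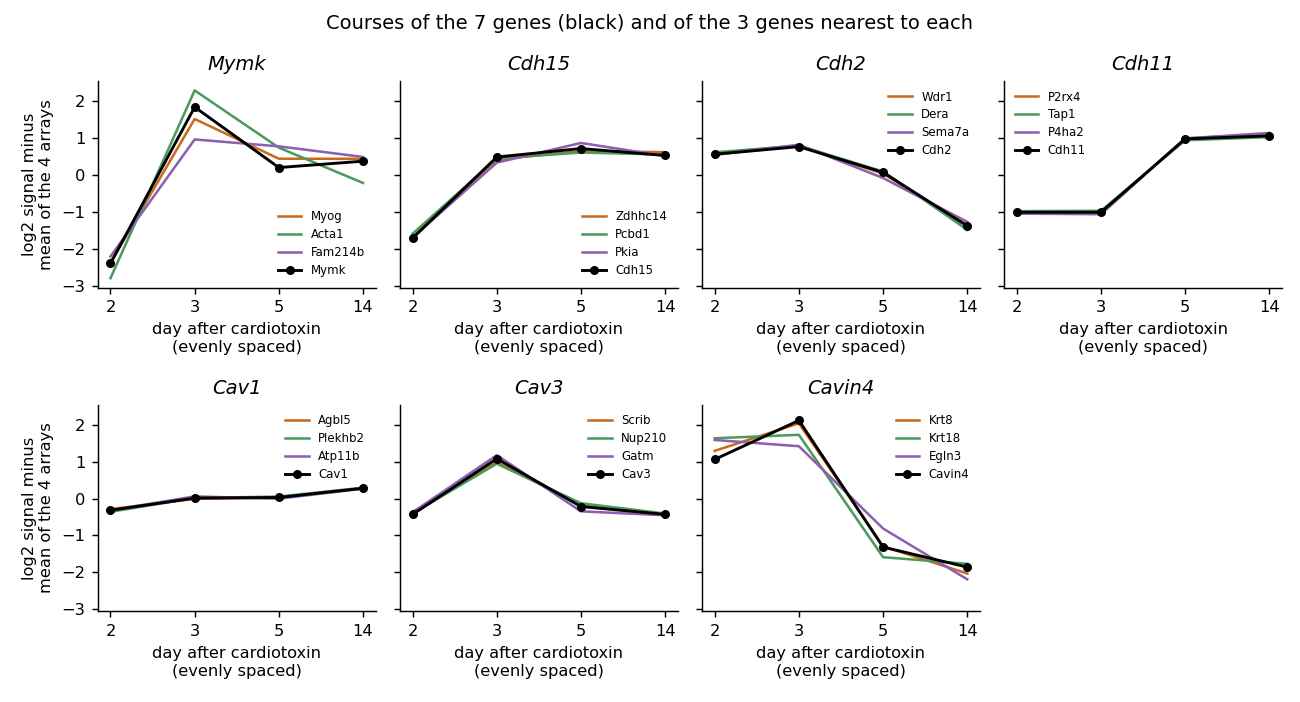
Log2 signal (floored, minus the gene's mean over the 4 arrays) by day for each of the 7 genes in black and for the 3 genes with the smallest root mean square difference to it in colour. Myog lies nearest to Mymk (0.20) and Krt8 nearest to Cavin4 (0.15), and the course of Cav1 is nearly level.

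From day 3 to day 5, 3 of the 7 genes were lower (Mymk, Cav3 and Cavin4), 1 was higher (Cdh11) and 3 were not called, beside 5.97% of 7523 measured genes lower and 11.6% higher. The median log2 ratio of the 7 was -0.70, against 0.06 over all measured genes. On day 3, 51 genes stood at least 2-fold above both day 2 and day 5 (0.643% of 7930 above the floor on any day). Mymk, Cav3 and Cavin4 are among them. With the values as deposited, the log2 ratio of Cavin4 for day 3 against day 2 was 0.87, short of 2-fold. That of Cav3 for day 5 against day 3 was then -0.99, and -0.29 with a floor at 100. From day 5 to day 14 a single gene was called, Cdh2, which was lower, beside 3.1% of 7709 measured genes lower and 4.81% higher. The other 6 had log2 ratios between -0.54 (Cavin4) and 0.25 (Cav1).

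**Figure D4:**
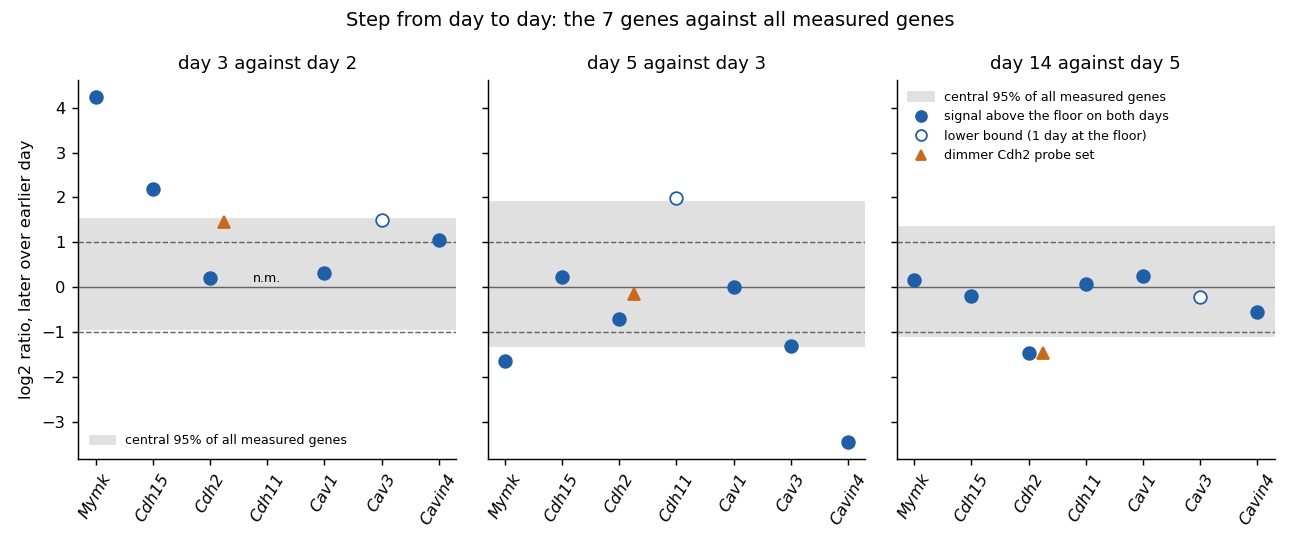
Log2 ratio of the later over the earlier day for the 7 genes at each step, with open circles for lower bounds, triangles for the dimmer Cdh2 probe set, n.m. where both days were at the floor, dashed lines at 2-fold and a grey band over the central 95% of all measured genes. Mymk on day 3 (4.24) and Cavin4 on day 5 (-3.43) lie furthest outside the band.

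Over wider spans the shares of all genes called were larger. For day 14 against day 2, 3 of 6 measured genes were higher (Mymk, Cdh15 and Cdh11) and 2 lower (Cdh2 and Cavin4), beside 22.8% of all genes higher and 14.8% lower. For day 5 against day 2, the same 3 were higher and Cavin4 was lower, 5.18-fold, beside 19.8% higher and 11.4% lower. For day 14 against day 3, Cdh11 was higher and Mymk, Cdh2, Cav3 and Cavin4 were lower, beside 16.3% higher and 11.5% lower.

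The other genes of these pathways came from lists that hold partners by role, and the counts leave out the 7 genes. The fusion list holds adhesion receptors, signalling proteins and actin regulators of myoblast fusion. Of its 31 measured genes, 2 were higher on day 3 than on day 2 and none lower: Myog (14.9-fold) and Capn1, a calcium-dependent protease (3.26-fold). That share, 6.45%, is close to the 6.69% over all genes. The median log2 ratio was 0.28. From day 3 to day 5, 7 of 33 were higher (21.2%, against 11.6% of all genes) and 4 lower (12.1%, against 5.97%). The increases were led by Adam12, a metalloprotease of forming muscle (5.90-fold), the receptor Tgfbr2 (2.90-fold, though its probe sets gave log2 ratios from 0.54 to 1.53), Dock1, an activator of Rac (2.81-fold), and the adhesion molecule Jam3 (2.76-fold). The decreases were Mtm1, a lipid phosphatase (at least 6.59-fold), Capn1 (2.60-fold), the integrin Itga3 (2.40-fold, probe sets from -1.26 to -0.29) and Myog (2.11-fold). From day 5 to day 14 the phospholipase Pld1 was higher (3.03-fold) and Myof, myoferlin, lower (2.41-fold), 2.86% in each direction against 4.81% and 3.1% of all genes, and 33 of 35 were not called. For day 14 against day 2, 12 of 36 were higher (33.3%, against 22.8% of all genes) and 3 lower (8.33%, against 14.8%), with a median of 0.59 against 0.20 over all genes.

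Of 17 cadherin genes on the array, 4 were above the floor on any day: Cdh15, Cdh2, Cdh11 and Cdh13. Cdh13, T-cadherin, which has no cytoplasmic tail, read 57.2 on day 2, then 88.5 on day 3, 259 on day 5 and 926 on day 14. It was 2.92-fold higher on day 5 than on day 3 and 3.58-fold higher on day 14 than on day 5. Endothelial and mural cells also carry Cdh13, and their part in its signal was not tested. Among catenins and other cadherin partners, 1 of 14 measured genes was higher on day 3 and 1 lower, 7.14% in each direction against 6.69% and 1.8% of all genes. These were Cdc42ep3, an effector of Cdc42 (3.37-fold, probe sets from 0.91 to 1.75), and Pkp4, a plakophilin (2.08-fold lower, probe sets from -1.06 to -0.69). On day 5, 1 of 15 was higher than on day 3 (6.67%, against 11.6% of all genes): Ctnnd1, p120 catenin, which holds cadherins at the surface (2.83-fold). On day 14, Arvcf, a relative of p120, was at least 2.31-fold and Cdc42ep3 2.14-fold higher than on day 5, and 14 of 16 were not called (12.5% higher, against 4.81% of all genes). For both genes another probe set was not past 2-fold, with log2 ratios from 0.46 to 1.21 for Arvcf and from 0.15 to 1.10 for Cdc42ep3. For day 14 against day 2, 7 of 16 were higher (43.8%, against 22.8% of all genes) and none lower. Ctnnb1, beta-catenin, named here for its role and not by its change, read 4231, 3898, 3888 and 4202 on the 4 days.

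Of the other 12 measured caveolar genes, 1 was higher on day 3 than on day 2 and none lower (8.33% higher, against 6.69% of all genes): Flot2, a flotillin of membrane rafts (2.47-fold). From day 3 to day 5, Ehd2, the ATPase at the neck of caveolae (2.29-fold), and its relative Ehd3 (2.27-fold) were higher (16.7%, against 11.6% of all genes) and Ehd4 lower (2.02-fold; 8.33%, against 5.97%). Ehd4 was lower again on day 14 than on day 5 (2.38-fold; 8.33% lower, against 3.1% of all genes), and 11 of 12 were not called. For day 14 against day 2, 6 of 12 were higher (50%, against 22.8% of all genes) and 2 lower (16.7%, against 14.8%). Ehd2 was 6.82-fold, Ehd3 at least 4.14-fold, Flot1 3.96-fold and Cavin3 2.94-fold higher, while Ehd4 was 3.31-fold and Ehd1 2.13-fold lower. Probe sets of Ehd3 gave log2 ratios from 0.31 to 2.05 and those of Ehd1 from -1.09 to 0.03, so for each of these genes another probe set was not past 2-fold. The widely expressed partners of Cav1 are named for their role. Cavin1, the coat protein that caveolae need to form, read 236, 339, 330 and 399 on the 4 days by its brightest probe set, and its measured probe sets disagreed for day 14 against day 5, with log2 ratios from 0.27 to 1.72. Cav2, which forms complexes with Cav1, read 713, 665, 353 and 426.

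**Figure D5:**
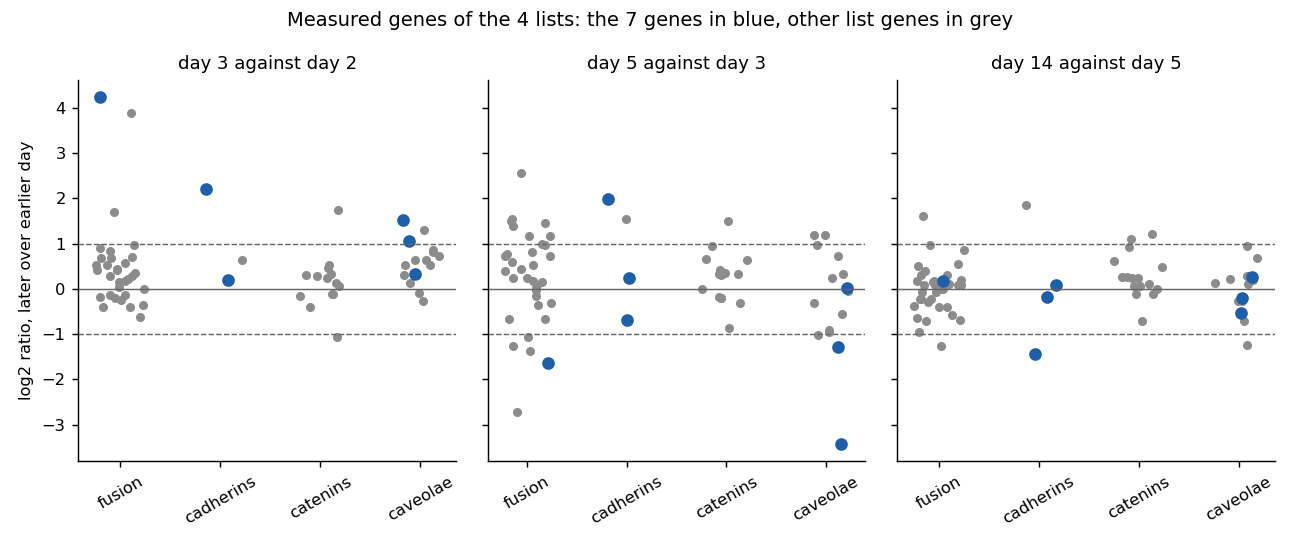
Log2 ratio of the later over the earlier day for each measured gene of the fusion, cadherin, catenin and caveolae lists, with the 7 genes in blue, the other list genes in grey and dashed lines at 2-fold. Besides Mymk, Myog stands apart in the fusion list on day 3 (14.9-fold), and on day 5 Cavin4 has the lowest ratio drawn, the next, Mtm1, being a bound (at least 6.59-fold).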

How the data were processed

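Signal intensity per probe set was deposited by the authors on a linear scale, 1 value per probe set and array, made with MAS5 per the submitters' processing notes. The sources used here do not give its settings or scaling target. Labelling used a small-sample assay, per the labels' protocols, which amplifies RNA and favours the 3' end. With Python 3.11.15, pandas 2.3.3 and numpy 2.4.6, arrays were brought to 1 trimmed mean (2% off each end; factors 0.997, 1.13, 0.917 and 0.976 on days 2, 3, 5 and 14), values under the pooled median were set to that floor, and log2 ratios were taken. Where a gene had several probe sets, the one brightest on average (log2) stood for it. Names came from the platform annotation: 20393 probe sets had 1 symbol, 691 several and 1606 none. Each probe set was compared between days with itself alone. Calls were checked on simulated data, with changes well past 2-fold placed in genes well above the floor. Recovery of changes close to 2-fold, or in genes close to the floor, was not covered by that check. Named genes were the 7 genes, the 3 nearest courses of each (clones left out) and up to 4 called genes per partner list and direction. The genes and lists were chosen with earlier results of these data known. Alternatives were 3 scalings, 2 floors, log2(signal + 16) with no floor, the mean of probe sets and folds of 1.5 and 3.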

Additional observations from a re-analysis of the deposited data

How the results depend on the processing

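Of 120 counts of called genes under 10 other settings, 112 stayed within 1.5 times the count given, and of 283 log2 ratios 250 moved by less than the SD between probe sets of 1 gene. None of the called ratios changed sign. With a floor at 100, no gene was called higher for day 5 against day 3 or for day 14 against day 3 (0 in place of 1, Cdh11). With a floor at 20 or with log2(signal + 16), 2 genes rather than 1 were lower for day 14 against day 5, Cav3 joining Cdh2. At 3-fold, 2 genes were higher for day 3 against day 2, 0 lower for day 14 against day 5 and 2 lower for day 14 against day 3. With the dimmer Cdh2 probe set, chosen after seeing the data, 1 gene was lower for day 14 against day 2. Calls of Mymk, Cdh15 and Cdh2 held under all 7 planned scalings, floors and probe set choices. Leaving the arrays unscaled shifted the median log2 ratio of all genes by -0.18 for day 3 against day 2 and by 0.27 for day 5 against day 3, and took the share of higher calls from 78.8% to 52.6% and from 66.1% to 87.4%. Quantile normalization shifted it by -0.18 for day 14 against day 2. No paired analysis was possible because each day has 1 array. Signals near the floor limit what can be said of Cav3 and Cdh11.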
